A study of Arabidopsis thaliana with 8 samples.

Results

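The comparison of seedlings after 57 h of light (L57) with germinating seeds after 26 h of light (L26) covers the last interval of an ATAC-seq time course of Arabidopsis thaliana. It was made over all 30223 accessible chromatin regions (ACRs) of the series, with 2 L57 and 2 L26 libraries among 8. ATAC-seq inserts sequencing adapters where DNA is open to a transposase, and an ACR is a stretch of the genome where such insertions pile up. All plants were wild type Col-0. Seeds were stratified in cold water in the dark and then shaken in liquid medium under continuous light at 22 °C, and they were sampled as L57 seedlings with expanded green cotyledons or as L26 seeds at about the time of radicle emergence. The labels give 1 extraction protocol for the whole series, in which embryos were pressed out of seed coats before nuclei were taken. The study's methods describe that step for germinating seeds and do not say whether seedlings passed through it. Any difference in handling between L57 and L26 cannot be told apart from the stage. Each library holds nuclei of many pooled plants and of all their cell types. The other libraries were from seeds after 6 h of light (L6) and dry seeds (DS), 2 each. They entered the scaling, the shared estimate of spread and the choice of the strongest ACR of a gene. They also give the earlier levels and the comparison of L6 with DS below. Replicates are numbered in the labels, with nothing said of separate cultures, and the p-values cover no more than the variation among the deposited libraries, part of which may be technical.

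Between these stages the plant changes from a seed living on stored oil to a seedling that photosynthesizes. Cotyledons open and green as phytochromes and cryptochromes release the factors that turn on photosynthesis genes, and auxin drives cell expansion. Abscisic acid (ABA) and the DELLA proteins hold a seed dormant, and their action has to end for the seedling to establish. In plant chromatin, open DNA upstream of a gene start is where transcription factors bind, whereas openness inside a transcribed gene can accompany passage of the polymerase or mark internal regulatory sites.

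Reads in ACRs numbered 1534759 and 1853894 in the L57 libraries and 2089834 and 2531844 in the L26 libraries, so the L57 libraries were the shallowest of the series. Levels are given in CPM, the authors' read counts scaled to library depth with a loess trend. Over all ACRs the Pearson correlation of log2 CPM across regions was 0.914 between the L57 libraries, 0.926 between the L26 libraries and 0.822 to 0.858 between stages. Differences are log2 fold changes of L57 over L26 ± SE from edgeR's quasi-likelihood test, and an ACR was called at a Benjamini-Hochberg adjusted p under 0.05 over all 30223 regions. The spread behind each SE and p-value was mostly pooled over ACRs (median prior of 190.8 degrees of freedom, beside 4 residual). The ± SE is therefore not a measure of the spread between the libraries at that ACR. Each call was refitted in up to 15 alternatives (other scalings, tests and filters, or with 1 library left out). ATAC-seq on whole plants cannot tell a change of openness within a cell type from a change in the share of that cell type among the nuclei.

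Of the ACRs described below, 4 are printed first as sequence, as examples of regions that opened or closed (RefSeq TAIR10.1, 161 bases around the summit, 5′ to 3′ on the strand of the gene). They are the promoters of the light signaling gene BBX22 (chr1:29566842-29567002, plus strand) and the auxin-responsive gene SAUR63 (chr1:10305321-10305481, minus strand), which opened, and the promoter of ABI4 (chr2:16797599-16797759, minus strand) and the region upstream of ABI3 (chr3:8996623-8996783, plus strand), which closed. Capitals mark motif matches on either strand. In BBX22 these are the G-box, CACGTG, and the auxin response element, TGTCTC. In SAUR63 they are the TATA box, TATAAA, and the MYB element, GTTAGGT. ABI4 holds the TATA box and the GA repeat, GAGAGAGA. ABI3 holds the letters TATAAA on the reverse strand only, in a region upstream of its promoter. The ACE core, the DRE core and the homeodomain-leucine zipper element were not marked.
BBX22: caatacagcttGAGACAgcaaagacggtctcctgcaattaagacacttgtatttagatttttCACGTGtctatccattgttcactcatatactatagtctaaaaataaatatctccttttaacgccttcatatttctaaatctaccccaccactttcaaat
SAUR63: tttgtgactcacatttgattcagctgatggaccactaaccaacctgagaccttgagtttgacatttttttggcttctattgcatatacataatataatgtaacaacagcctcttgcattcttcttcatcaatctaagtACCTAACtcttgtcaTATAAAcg
ABI4: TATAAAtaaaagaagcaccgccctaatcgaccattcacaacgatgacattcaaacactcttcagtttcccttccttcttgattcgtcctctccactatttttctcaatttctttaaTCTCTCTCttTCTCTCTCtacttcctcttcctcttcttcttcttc
ABI3: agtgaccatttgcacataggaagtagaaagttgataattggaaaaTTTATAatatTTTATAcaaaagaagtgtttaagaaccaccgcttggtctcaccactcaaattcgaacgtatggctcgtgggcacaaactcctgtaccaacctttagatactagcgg
Windows of 161 bases around the summits of all ACRs held the G-box in 9.26%, the auxin response element in 11.6%, the TATA box in 16.3%, the MYB element in 1.82% and the GA repeat in 5.56%. These matches describe the letters only.

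In all, 2276 ACRs were higher and 1871 were lower at L57 than at L26, which is 7.53% and 6.19% of those tested. A change of at least 2-fold was reached by 833 higher and 793 lower ones. Any 1 of the 4 L57 and L26 libraries left out brought the counts to between 1039 and 1341 higher and between 811 and 1230 lower ACRs. Both L57 libraries lay above both L26 libraries in 26.7% of all ACRs and below them in 27.8%, and against these shares a lack of overlap alone says little. Of the called ACRs 54.9% were higher at L57, and this split depended on the method: TMM scaling gave 2116 higher and 2579 lower ACRs (45.1% higher), and the DESeq2 Wald test gave 814 and 1177 (40.9% higher).

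The direction of change differed with the position of the ACR. Promoter ACRs have a summit no more than 400 bp before or 100 bp past an annotated start, and gene-body ACRs lie elsewhere within a gene. Among 11692 gene-body ACRs, 1388 were higher at L57 and 330 were lower (11.9% and 2.82%), with a median log2 fold change of 0.20. Among 10094 promoter ACRs, 456 were higher and 704 were lower (4.52% and 6.97%), with a median of -0.13. Among 6448 intergenic ACRs, 376 were higher and 792 were lower (5.83% and 12.3%), with a median of -0.17, beside a median of -0.02 over all ACRs. Without any 1 of the 4 libraries these counts were 576 to 778 higher and 141 to 210 lower gene-body ACRs, 233 to 301 higher and 269 to 468 lower promoter ACRs, and 185 to 237 higher and 378 to 538 lower intergenic ACRs. With offsets corrected for GC the intergenic balance turned, to 581 higher and 501 lower.

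Within genes the opening was found in coding exons, where 976 ACRs were higher and 127 lower of 7931, and in introns, where 214 were higher and 51 lower of 1448. The median log2 fold change was 0.25 in coding exons and 0.24 in introns. In 3′ UTRs 124 were higher and 50 lower of 1002 (median 0.05). Gene-body ACRs with their summit in a 5′ UTR moved as promoters did, with 51 higher and 63 lower of 971 (median -0.07). Among intergenic ACRs upstream of the nearest start, the share that was lower was 13.0% at 400 to 1000 bp, 13.8% at 1000 to 2000 bp and 14.6% at 2000 to 4000 bp.

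**Figure D1:**
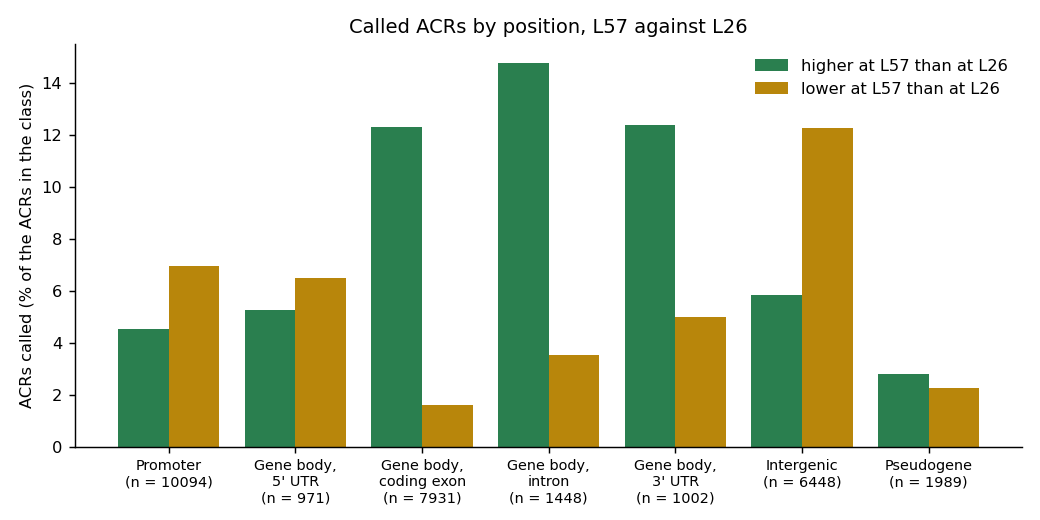
Share of ACRs called higher (green) or lower (ochre) at L57 than at L26, as a percentage of the ACRs in each position class, with the number of ACRs under each class. Coding exons, introns and 3′ UTRs show more higher than lower ACRs (12.3% against 1.6% in coding exons), and promoters and intergenic regions show the reverse, which for intergenic regions turned with offsets corrected for GC (581 higher and 501 lower).

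Ordered by distance from the nearest annotated gene start, the median was lowest just upstream of it, at -0.13 for 6088 ACRs within 250 bp, and highest 1000 to 1250 bp downstream, at 0.25 for 1212 ACRs. The share called higher was 4.32% in the bin just upstream of the start and reached 14.6% at 1250 to 1500 bp downstream. The share called lower was 6.93% just upstream of the start and 2.44% at 500 to 750 bp downstream. Bins upstream also hold ACRs inside neighboring genes, since only the nearest start was used.

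**Figure D2:**
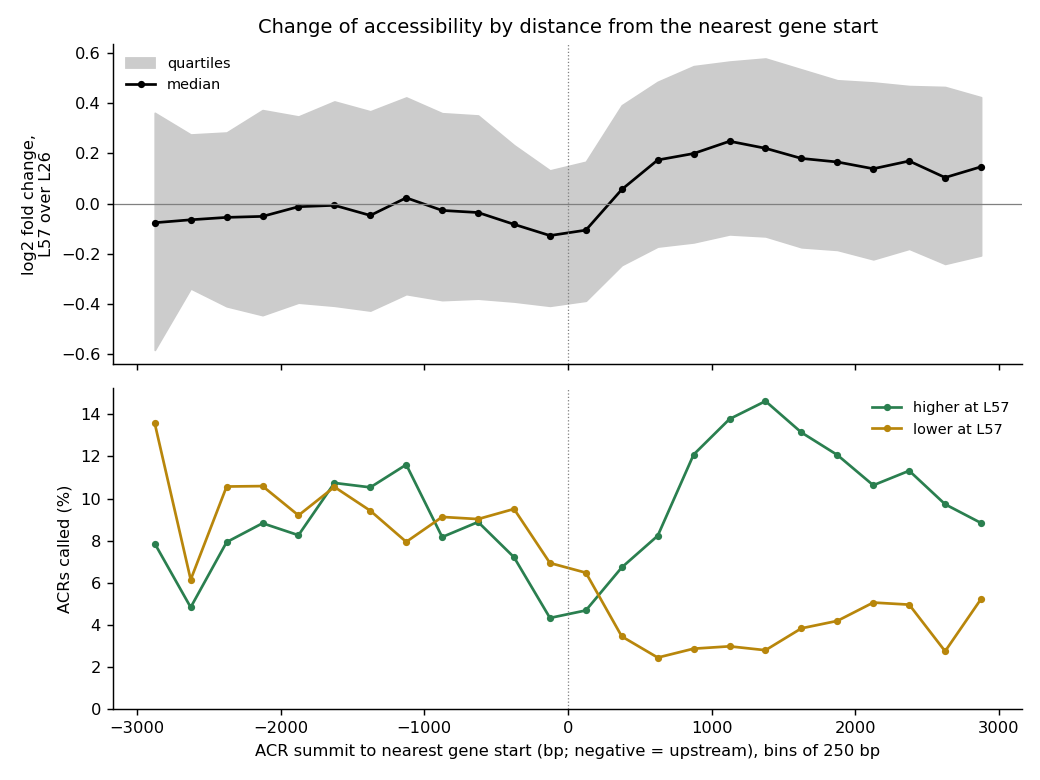
ACRs in bins of 250 bp by the distance of their summit from the nearest gene start (negative is upstream). The upper panel gives the median log2 fold change of L57 over L26 with the quartiles, and the lower panel the percentage of ACRs called higher (green) or lower (ochre). Higher calls peak at 14.6% downstream of the start.

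The same pattern was seen in the raw reads without a model. Gene-body ACRs took 36.1% and 35.2% of the reads in the L57 libraries, against 30.9% and 31.7% in the L26 libraries, a difference of 4.36 percentage points. Promoter ACRs took 37.9% and 38.8% at L57, against 41.7% and 40.3% at L26, a difference of -2.66 points. The L57 and L26 libraries did not overlap in either share, and the exact 2-sided permutation test gave p = 0.333 for both, the smallest value that 2 libraries against 2 can give. Gene-body ACRs took 33.4% and 33.0% in dry seeds and 29.5% and 29.8% at L6, so the L57 share was the highest of the 4 stages and the L6 share the lowest.

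**Figure D3:**
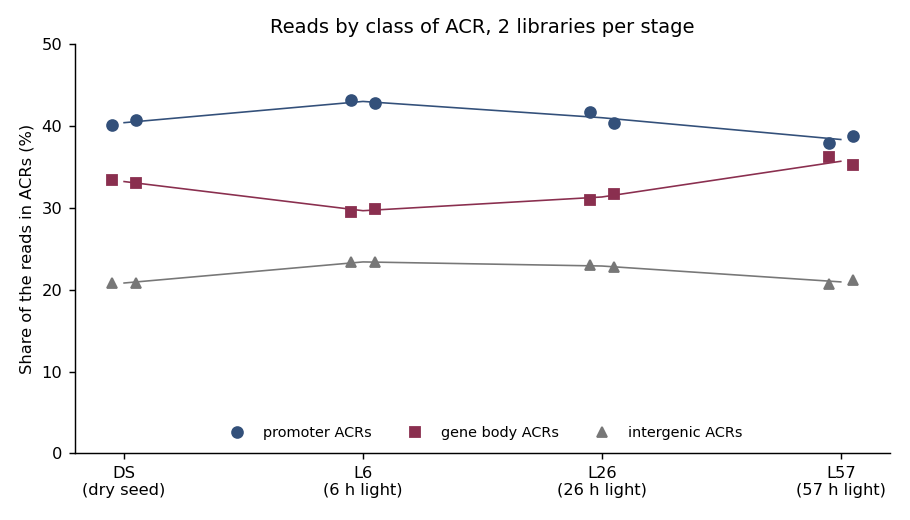
Share of all reads in ACRs that fell in promoter, gene-body and intergenic ACRs, in percent, by stage. Each point is 1 library, 2 per stage, and lines join the stage means. At L57 the gene-body share reaches 36.1% and 35.2%, and the promoter share is 37.9% and 38.8%.

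The same contrast was seen within genes. Of 3215 protein-coding genes that have both, each taken by its strongest ACRs, the gene-body ACR had the larger log2 fold change in 2462 (76.6%). The median was 0.31 for the gene-body ACR and -0.16 for the promoter ACR of these genes. In 30 genes the promoter was lower and the gene body higher at L57, and in 3 the reverse was called. Both were higher in 15 genes and both lower in 15. The promoter alone was called lower in 186 genes and higher in 86, and the gene body alone higher in 485 and lower in 49. Whether the 30 exceed the number that unlinked calls would give was not tested. The 30 are therefore not evidence of linked opposite movement within genes. No test was made between the classes.

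By the fixed rule the widest gaps were at genes known by their identifiers. AT5G01460 had 19.4 and 19.2 CPM at L57 in an intronic ACR (chr5:188136-188525), against 7.77 and 3.02 CPM at L26. Its promoter ACR (chr5:186283-186769) had 32.5 and 28.9 CPM at L57, against 56.8 and 52.1 CPM at L26. These libraries did not overlap at either place, and the changes were 1.91 ± 0.39 and -0.83 ± 0.22, a gap of 2.73 ± 0.45. AT5G60760 had a gap of 2.83 ± 0.59 (gene body 0.94 ± 0.31, promoter -1.89 ± 0.50) and AT2G25100 one of 2.51 ± 0.52. AT3G50560 ran the other way, with a promoter that rose by 1.50 ± 0.27 and an intronic ACR at -1.06 ± 0.35. Of these 8 calls only the AT3G50560 promoter kept its call in each alternative, as the others had adjusted p-values of up to 0.31 (edgeR) with 1 library left out. The transcription factor gene PHB, which specifies the upper leaf side, is among the 30, with -1.41 ± 0.38 at its promoter and 0.91 ± 0.20 in a coding exon. HAT3, a homeodomain gene of the same organ side, had -0.95 ± 0.25 and 1.17 ± 0.31, and was picked from the 30 after its values were seen.

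Base composition differed between higher and lower ACRs and between position classes, and the balance of calls varied with the level. The median GC content was 40.3% in higher and 34.9% in lower ACRs, beside 39.1% in all, and 42.3% in gene-body, 37.6% in promoter and 34.1% in intergenic ACRs. The median width was 673 bp for higher and 532 bp for lower ACRs, beside 522 bp in all. Among ACRs with 39.13 to 43.22% GC, 13.5% of gene-body ACRs were higher and 1.94% lower, against 5.18% and 3.58% of promoter ACRs. Among those with the least GC (22.85 to 35.03%), 9.64% of gene-body ACRs were higher and 10.1% lower. With offsets corrected for GC, gene bodies had 1057 higher and 378 lower ACRs, promoters 504 and 561, and intergenic regions 581 and 501, so there the intergenic excess of lower calls was gone. The part of base composition in the remaining difference was not tested.

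The largest promoter rises included genes of carbon fixation and growth. CA1 (AT3G01500, chr3:197889-198563, 5′ UTR), which encodes a carbonic anhydrase of the chloroplast, had 56.5 and 47.5 CPM at L57, against 11.4 and 16.7 CPM at L26. Both seedling libraries were about alike and well above both L26 libraries, and the promoter rose by 1.85 ± 0.26 (edgeR adjusted p = 1.33e-08). CA2 (AT5G14740), a related enzyme, opened at an ACR in an intron near its start (chr5:4758149-4758586) with 36.4 and 35.7 CPM at L57, against 10.2 and 8.70 CPM at L26, a change of 1.94 ± 0.29. CA1 had averaged 18.2 CPM in dry seeds and 13.5 CPM at L6, and CA2 8.31 CPM in dry seeds and 4.35 CPM at L6, so at both genes the L57 level was the highest of the course.

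SAUR63, SAUR68, IDL1, SOFL1, RTFL16, SNC1 and LHB1B1 complete the 8 promoter ACRs with the largest rises. IDL1, a gene for a small secreted peptide of the IDA family, rose by 1.77 ± 0.37, and RTFL16, which belongs to a family of small peptides that restrain cell proliferation, rose by 1.63 ± 0.30. SOFL1, of a small family that raises cytokinin levels in Arabidopsis, rose by 1.75 ± 0.33, with 26 and 31.1 CPM at L57, against 4.83 and 11.4 CPM at L26. SNC1 (chr4:9505588-9506619), an immune receptor gene in a cluster of similar genes, had 70.1 and 62.7 CPM at L57, against 21.6 and 21.7 CPM at L26. LHB1B1 (chr2:14524305-14524682), a gene of the major antenna protein of photosystem II, had 30.7 and 32.2 CPM at L57, against 5.81 and 14.8 CPM at L26. The L57 libraries agreed closely at both genes, while the L26 libraries differed more at LHB1B1. The authors dropped low-quality alignments, so reads that match several near-identical copies of SAUR, SNC1 or antenna genes equally well may be missing. The levels of single copies are therefore uncertain.

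The largest promoter falls included regulators of the seed. ABI4 (AT2G40220, chr2:16797489-16798050), the factor that holds ABA responses in seeds, had 14.9 and 9.36 CPM at L57, against 38.9 and 43.4 CPM at L26. The promoter fell by 1.79 on the log2 scale (SE 0.29, edgeR adjusted p = 1.39e-06), and the seedling libraries were both far below. HAI3 (AT2G29380, chr2:12607859-12608660), a phosphatase gene induced by ABA, had 11.2 and 10.9 CPM at L57, against 37.5 and 32.2 CPM at L26 (-1.65 ± 0.30). AIL5 (AT5G57390, chr5:23256385-23256858), an AP2-type factor of embryo and young organs, had 27.9 and 22.8 CPM at L57, against 76.9 and 86.9 CPM at L26 (-1.71 ± 0.21). GSTU7 (chr2:12618672-12619415), a glutathione transferase gene, had 24.2 and 19.9 CPM at L57, against 65.7 and 67.0 CPM at L26 (-1.60 ± 0.23).

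The other promoter falls rested on fewer reads. They were scpl18, a carboxypeptidase-like gene (-1.66 ± 0.37), FBH4, a bHLH gene of the flowering pathway (-1.56 ± 0.37), ECT2, a reader of methylated RNA (-1.43 ± 0.40), and DRS1 (-1.42 ± 0.42). Without L57 replicate 2 the adjusted p (edgeR) was 0.0788 for scpl18, 0.0501 for FBH4 and 0.222 for DRS1. For ECT2 it was 0.109 without L57 replicate 1 and 0.0649 without L26 replicate 2, and for DRS1 0.120 without L26 replicate 1. DRS1 was also not called by the DESeq2 Wald test (adjusted p = 0.0645). The other 12 of the 16 promoter ACRs kept their call in each alternative that gave a value, and IDL1 had no adjusted p in the DESeq2 Wald test.

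The largest rise of any gene-body ACR was in a coding exon of BET9 (AT5G14270, chr5:4605161-4606321), a bromodomain gene. It had 513 and 217 CPM at L57, against 20.7 and 30.7 CPM at L26. Dry seeds averaged 40.5 CPM and L6 seeds 29.5 CPM. The change was 3.78 ± 0.18 (edgeR adjusted p = 8.72e-49). The L57 libraries differed from each other by more than the whole L26 level, a gap that the pooled SE does not measure. The others were smaller. HSI2 (AT2G30470, also VAL1), a repressor of the seed maturation programme, had 158 and 102 CPM at L57 in a coding exon (chr2:12981683-12983346), against 43.0 and 39.6 CPM at L26 (1.63 ± 0.18). The L57 libraries differed from each other by more than the L26 level at HSI2 too. Next to this ACR lie other exonic ACRs of the same gene that rose by 1.18 ± 0.19 and 1.27 ± 0.22, so the rise was not limited to 1 ACR. SIC, a gene of RNA processing, rose by 1.89 ± 0.37, WES1, which encodes an enzyme that conjugates auxin, by 1.84 ± 0.34, and LON4, an organelle protease gene, by 1.78 ± 0.36. LON4 was not called without L26 replicate 2 (adjusted p = 0.106, edgeR), and SIC had no adjusted p in the DESeq2 Wald test.

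Gene-body falls were led by RGL2 (AT3G03450), the DELLA protein best known for blocking germination. An ACR in its 3′ UTR (chr3:819187-819580) had 6.82 and 3.92 CPM at L57, against 25.2 and 17.4 CPM at L26 (-1.98 ± 0.39). The RGL2 region in the 5′ UTR changed by -1.02 ± 0.29, with adjusted p (edgeR) of 0.231 without L57 replicate 1 and 0.241 without L26 replicate 1, and one 846 bp upstream (chr3:822327-823010) had 54.2 and 49.5 CPM at L57, against 123 and 104 CPM at L26 (-1.13 ± 0.17). At all 3 places both L57 libraries were below both L26 libraries. BXL3, a xylosidase gene, changed by -1.75 ± 0.31, CHX20, a cation exchanger gene of guard cells, by -1.54 ± 0.26, and GASA4, a gibberellin-regulated peptide gene, by -1.49 ± 0.27. CYP707A2, whose enzyme breaks down ABA in seeds, changed by -1.44 ± 0.36, and ABCG41, a transporter gene, by -1.40 ± 0.38. Without L57 replicate 1 the adjusted p (edgeR) of CYP707A2 was 0.118, and without L57 replicate 2 that of ABCG41 was 0.103. ABCG41 was also not called with the libraries thinned to the smallest (0.0502).

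Intergenic ACRs gave the deepest fall of the seed regulators. The ACR 667 bp upstream of ABI3 (AT3G24650, chr3:8996429-8997445), the B3 factor that with LEC1 and FUS3 directs seed maturation, had 9.86 and 9.60 CPM at L57, against 74.4 and 56.8 CPM at L26. Dry seeds averaged 81.5 CPM and L6 seeds 105 CPM. The ABI3 region fell by 2.74 on the log2 scale (SE 0.27, edgeR adjusted p = 8.11e-16), and the seedling libraries were almost equal. PROT1 (AT2G39890, chr2:16654222-16654971), a proline transporter gene, had 9.55 and 13.7 CPM at L57 in an ACR 1012 bp upstream, against 67.5 and 65.8 CPM at L26 (-2.49 ± 0.26). AIL5 had an upstream ACR (chr5:23258170-23258891) with 21.8 and 16.8 CPM at L57, against 77.2 and 83.9 CPM at L26 (-2.08 ± 0.22). The region upstream of AT1G47400 changed by -2.04 ± 0.38. The largest intergenic rises were nearest to AT1G28260 (2.26 ± 0.33), AT3G41761 (1.99 ± 0.31), AT1G05003 (1.95 ± 0.30) and the oligopeptide transporter gene OPT9 (1.91 ± 0.34). All 8 intergenic calls were kept in each alternative that gave a value. The ACRs with the highest levels lay at the start of chromosome 2 and were classed as promoter ACRs. The one nearest to AT2G00340 had 2836 and 2192 CPM at L57, against 894 and 1016 CPM at L26 (1.39 ± 0.06). The one nearest to AT2G01010 had 1816 and 1545 CPM, against 856 and 906 CPM (0.93 ± 0.07). Whether these regions, or the one near AT3G41761, hold repeated sequence was not tested.

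**Figure D4:**
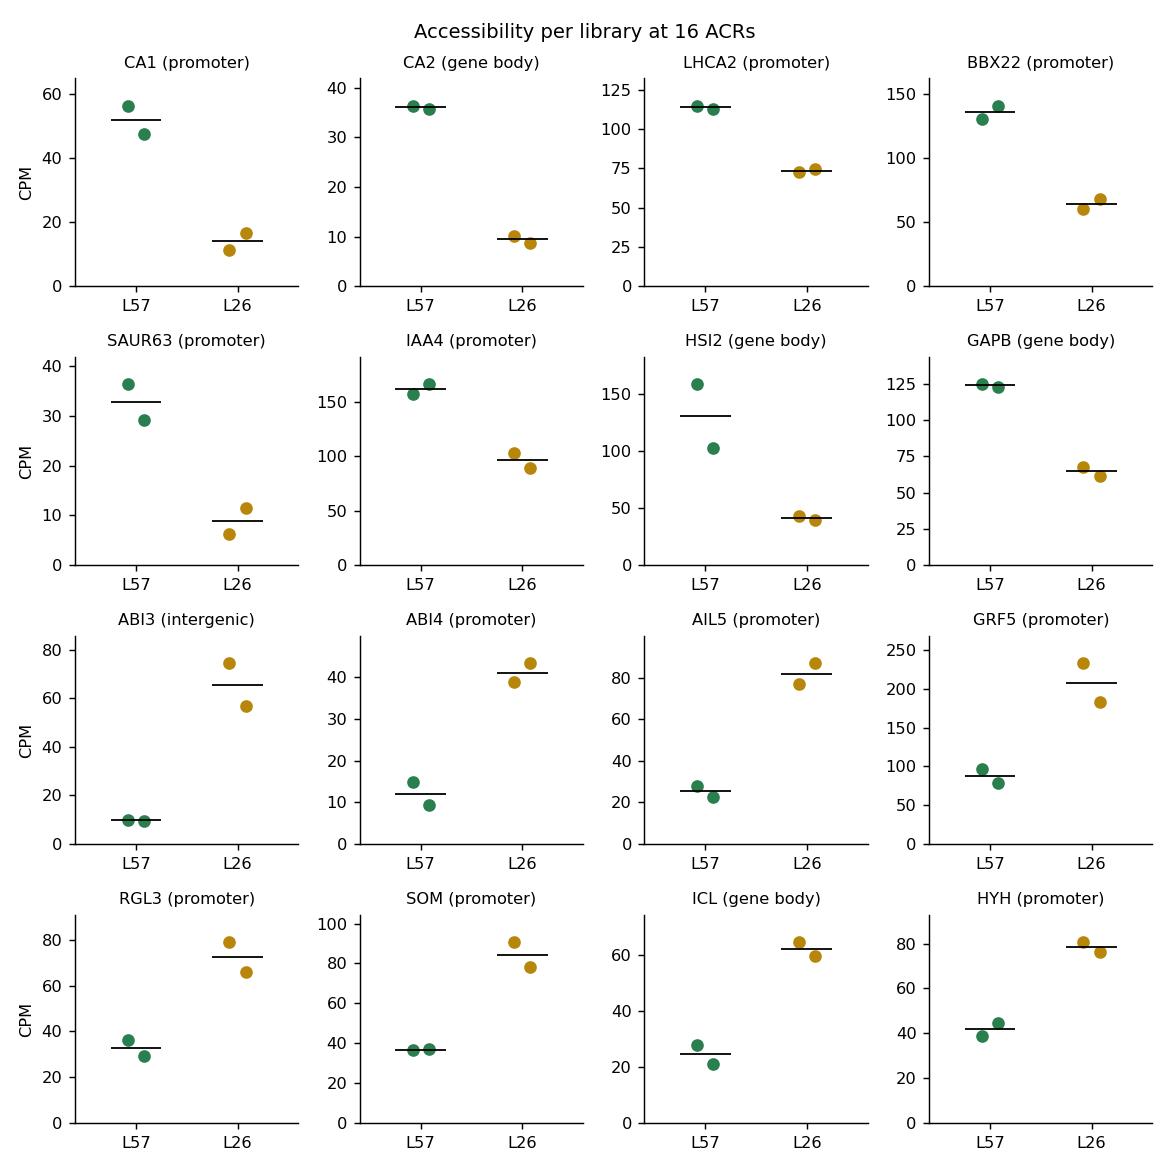
Accessibility in CPM at 16 ACRs, with the L57 libraries (green) left of the L26 libraries (ochre), a line at each mean, and axes that start at 0. In the upper 8 panels both L57 libraries are above both L26 libraries (CA1 56.5 and 47.5 CPM against 11.4 and 16.7 CPM), and in the lower 8 they are below (ABI3 9.86 and 9.60 CPM against 74.4 and 56.8 CPM).

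Gene families were read through the strongest promoter ACR of each gene. Over 10321 protein-coding genes with a promoter ACR, 425 were higher and 651 lower at L57 (4.12% and 6.31%), with a median of -0.12. The 28 lists hold 653 genes, of which 344 had a promoter ACR. Counts of gene-body and upstream ACRs in the lists stand against the shares over all gene-body ACRs (11.9% higher and 2.82% lower) and all intergenic ACRs (5.83% and 12.3%).

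Photosynthesis promoters that changed were all higher. Of 41 nuclear genes of the photosystems and electron transport, 35 had a promoter ACR, 9 were higher at L57, 0 were lower and 26 were not called, with a median of 0.29. LHCA2 (AT3G61470, chr3:22745097-22745964), an antenna protein gene of photosystem I, had 115 and 113 CPM at L57, against 72.9 and 74.4 CPM at L26 (0.63 ± 0.16). The libraries of each stage were nearly identical. Upstream of LHCA2, ACRs at 926 and 1948 bp rose as well, by 1.46 ± 0.25 and 1.00 ± 0.25, and 1 of these was not called without L57 replicate 2 (adjusted p = 0.0564, edgeR). PSBR, a subunit gene of photosystem II, had 138 and 120 CPM at L57, against 89.8 and 81.8 CPM at L26 (0.58 ± 0.15), and PSAD-2, of photosystem I, had 64.2 and 97.2 CPM, against 56.8 and 43.1 CPM (0.73 ± 0.18). LHCB2.1, LHCB2.2, LHCA3, LHCB5, PSAO and DRT112, a plastocyanin gene, rose by 0.46 to 0.83.

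All 9 promoter rises of the list were under 2-fold, and 0 of the 9 calls held in each alternative, with lost calls at adjusted p (edgeR or DESeq2) of up to 0.379. The antenna gene LHB1B1, described above, is not in this list. Its promoter rose by 1.54 on the log2 scale and kept its call in each of 14 alternatives. LHCA2 lost its call in the DESeq2 Wald test only. With TMM scaling 6 members were higher and 2 lower, and with DESeq2 size factors also 6 and 2. Within the gene bodies of the family 2 ACRs were higher and 3 lower of 15. LHCB1.3 had 76.0 and 81.0 CPM at L57 in its coding exon, against 32.8 and 27.8 CPM at L26 (1.38 ± 0.20), whereas its tandem neighbor LHCB1.2 had 20.0 and 29.7 CPM, against 58.1 and 62.3 CPM (-1.26 ± 0.23). These copies are near-identical, and reads that match both equally well may be missing, as low-quality alignments were dropped.

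In the Calvin cycle 10 of 15 genes had a promoter ACR, of which 2 were higher and 0 lower (median 0.36). RBCS1B, a small subunit gene of Rubisco, had 47.1 and 25.6 CPM at L57, against 16.7 and 18.3 CPM at L26, and RCA, which encodes Rubisco activase, had 38.8 and 40.0 CPM, against 24.5 and 20.5 CPM. The RBCS1B change rested on L57 replicate 1, as without it the adjusted p (edgeR) was 0.355, and RCA was not called without L57 replicate 1 (0.0770), L57 replicate 2 (0.113) or L26 replicate 2 (0.142). GAPB, a chloroplast glyceraldehyde phosphate dehydrogenase gene, opened in its 5′ UTR with 124 and 123 CPM at L57, against 67.8 and 61.6 CPM at L26 (0.94 ± 0.16), and this held in each alternative. A region 1807 bp upstream of RBCS1A was lower, at 45.4 and 41.1 CPM at L57, against 83.1 and 75 CPM at L26 (-0.87 ± 0.18).

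Chlorophyll synthesis and plastid regulators showed 0 called promoters of 13 measured, with a median of -0.06. HEMA1 (AT1G58290), the first committed step of chlorophyll precursor synthesis, opened in its coding exon (chr1:21623782-21625190) with 79.4 and 90.3 CPM at L57, against 40.8 and 48.2 CPM at L26 (0.93 ± 0.18), while its promoter had 28.3 and 25.6 CPM, against 23.7 and 20.9 CPM (0.28 ± 0.27, not called). PORA, the protochlorophyllide reductase of dark-grown seedlings, had 18.8 and 21.1 CPM at L57 in an exon, against 10.7 and 10.2 CPM at L26 (0.94 ± 0.33), a call lost without any 1 of the 4 libraries (adjusted p 0.102 to 0.207, edgeR). PORB had 34.7 and 50.9 CPM, against 60.0 and 51.1 CPM at its promoter (-0.35 ± 0.20), and PORC 51.8 and 57.4 CPM, against 55.8 and 61.3 CPM (-0.10 ± 0.19), neither called. GLK1 and GLK2 encode the factors that build the chloroplast. One of 3 ACRs at the GLK1 locus, 1334 bp upstream (chr2:8853634-8854115), had 54.5 and 38.1 CPM at L57, against 33.0 and 25.4 CPM at L26 (0.67 ± 0.23), and it was not called without L57 replicate 1 (adjusted p = 0.453, edgeR) or L26 replicate 2 (0.296). GLK2 had 25.1 and 34.0 CPM at its promoter, against 34.2 and 27.9 CPM, so its libraries overlapped.

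Light signaling genes split. Of 32 genes, 23 had a promoter ACR, 3 were higher and 2 lower (median -0.08). BBX22 (AT1G78600, chr1:29565451-29567111), a B-box factor that works with HY5, had 131 and 141 CPM at L57, against 60.4 and 68.6 CPM at L26 (1.08 ± 0.15). PIF7 (AT5G61270, chr5:24640341-24641138), a phytochrome-interacting factor of the shade response, had 39.5 and 33.0 CPM at L57, against 11.8 and 16.7 CPM at L26 (1.31 ± 0.28). HYH (AT3G17609, chr3:6023398-6024013), the homolog of HY5, was lower, with 38.7 and 44.7 CPM at L57, against 80.7 and 76.1 CPM at L26 (-0.90 ± 0.19). These 3 calls were kept in each alternative. PIF5 rose by 0.51 ± 0.14, and PIF3 changed by -0.61 ± 0.18, with adjusted p = 0.268 (edgeR) without L57 replicate 2 and 0.177 without L26 replicate 1. PIF5 was not called with TMM or DESeq2 size factors or with total counts.

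HY5 itself, the central activator of seedling greening, had 119 and 122 CPM at L57 at its promoter (chr5:3594825-3595566), against 117 and 133 CPM at L26, an overlap with a difference of -0.05 ± 0.13. PIF4, which drives hypocotyl elongation, had 73.0 and 97.5 CPM at its promoter, against 65.0 and 65.5 CPM, a difference of 0.40 ± 0.17 that was not called (edgeR adjusted p = 0.0894). None of the 5 ACRs in and up to 3000 bp upstream of PIF4 were called. RUP1, a repressor of the UV-B photoreceptor, opened 884 bp upstream with 68.3 and 73.3 CPM at L57, against 30.9 and 37.1 CPM at L26 (1.05 ± 0.20). PIF1, which represses germination in the dark, was lower in its 5′ UTR with 42.3 and 48.2 CPM, against 81.8 and 80.2 CPM (-0.83 ± 0.18). Of 14 measured promoters of the circadian clock, 0 were called (edgeR, median -0.23), but with TMM scaling 5 were lower.

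The SAUR genes, which respond early to auxin and promote cell expansion, had the highest promoter median of the 28 lists. Of 26 SAUR genes, 12 had a promoter ACR in 11 distinct regions, 9 were higher, 1 was lower and 2 were not called, with a median of 1.17, beside -0.12 over all genes. SAUR63 (AT1G29440, chr1:10305169-10305643) had 36.4 and 29.2 CPM at L57, against 6.28 and 11.4 CPM at L26 (1.83 ± 0.31, edgeR adjusted p = 4.94e-06). The region of AT1G29510 (SAUR67 in the list and SAUR68 in the annotation, chr1:10321987-10322518) had 33.0 and 42.8 CPM at L57, against 17.4 and 6.1 CPM at L26 (1.78 ± 0.29). SAUR6 (chr2:9085856-9086376) had 47.8 and 67.9 CPM, against 15.5 and 20.5 CPM (1.68 ± 0.24). In each of these regions the lower L57 library stood above the higher L26 library by a wide margin.

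SAUR14 and SAUR15 are neighbors that share 1 ACR (chr4:18125539-18126141), with 85.5 and 81.8 CPM at L57, against 37.0 and 43.5 CPM at L26 (1.04 ± 0.19). SAUR66, SAUR19 and SAUR21 rose by 1.38 ± 0.30, 1.32 ± 0.31 and 1.29 ± 0.28, and SAUR9 by 0.79 ± 0.28. SAUR51 was the exception, with 65.1 and 64.0 CPM at L57, against 91.4 and 107 CPM at L26 (-0.63 ± 0.16). Of the 9 called regions, 6 kept the call in each alternative. By edgeR, SAUR9 had adjusted p = 0.236 without L57 replicate 1, 0.0971 without L57 replicate 2 and 0.345 without L26 replicate 2, SAUR21 had 0.0576 without L57 replicate 1, and SAUR51 had 0.0654 without L57 replicate 2 and 0.0946 without L26 replicate 2. The list median was 1.17 to 1.32 under the other scalings. Before L26 the levels were low, as SAUR63 averaged 14.3 CPM in dry seeds and 10.7 CPM at L6, and SAUR6 17.2 CPM in dry seeds and 16.4 CPM at L6.

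Other auxin genes were mixed. Among 27 Aux/IAA repressor genes, 18 had a promoter ACR, of which 3 were higher and 1 lower (median -0.06). IAA3 (chr1:1129287-1129828) had 45.9 and 42.6 CPM at L57, against 20.5 and 16 CPM at L26 (1.29 ± 0.26), and IAA4 (chr5:17549693-17550479) had 157 and 166 CPM, against 104 and 89.7 CPM (0.75 ± 0.14). Both held in each alternative. IAA34 rose by 1.00 ± 0.35 and IAA26 changed by -0.92 ± 0.25, with adjusted p (edgeR) of up to 0.164 for IAA34 and 0.218 for IAA26 with 1 library left out. IAA19, a growth-linked member, had 55.7 and 50.3 CPM at its promoter, against 50.7 and 56.6 CPM, but 1255 bp upstream (chr3:5262475-5262881) it had 40.5 and 36.6 CPM at L57, against 13.0 and 11.8 CPM at L26 (1.63 ± 0.28). At this gene the distant region opened, and the promoter libraries overlapped.

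Of 8 measured promoters of auxin synthesis, receptor and response factor genes, 0 were higher and 2 lower (median -0.28). ARF3, an auxin response factor of leaf polarity, had 31.1 and 27.9 CPM at L57, against 59.6 and 69.2 CPM at L26 (-1.14 ± 0.21). A region upstream of the auxin receptor gene AFB3 was higher, with 86.2 and 80.2 CPM, against 41.3 and 33.4 CPM (1.16 ± 0.19), and one upstream of the receptor gene TIR1 was lower, with 40.0 and 47.3 CPM, against 73.7 and 76.6 CPM (-0.77 ± 0.19), not called without L57 replicate 1 (adjusted p = 0.0561, edgeR). Of 5 measured promoters of auxin transport genes 0 were called (median -0.30).

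ABA promoters that changed were all lower. Of 36 genes, 23 had a promoter ACR, 0 were higher and 4 were lower (median -0.23). ABI4 and HAI3 are given above. RD29B, a gene induced by drought and ABA, had 44.0 and 52.5 CPM at L57, against 83.0 and 80.2 CPM at L26 (-0.74 ± 0.18), and ABI5, the bZIP factor that arrests germinated embryos, had 107.5 and 108.5 CPM, against 145 and 156 CPM (-0.48 ± 0.13). The seedling libraries of ABI5 were close to each other and below both L26 libraries. ABI5 was not called by edgeR with offsets corrected for GC (adjusted p = 0.0752), without L57 replicate 2 (0.0587) and without L26 replicate 2 (0.0671), and RD29B had 0.0551 without L57 replicate 1. Upstream of ABA genes 6 of 21 intergenic ACRs were lower and 0 higher (median -0.42). ABI4 had a second region 1695 bp upstream (chr2:16798958-16799752) with 8.06 and 13.7 CPM at L57, against 45.5 and 45.4 CPM at L26 (-2.02 ± 0.28), and AHG1, a phosphatase gene of seed ABA signaling, had 14.3 and 13.9 CPM, against 31.0 and 36.5 CPM (-1.27 ± 0.29).

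In gene bodies of the ABA list 3 ACRs were higher and 4 lower of 28, beside 11.9% and 2.82% of all gene-body ACRs. HAI1, a phosphatase that limits ABA signaling, was higher in its coding exon, with 98.9 and 93.3 CPM at L57, against 59.4 and 54.7 CPM at L26 (0.75 ± 0.16), in contrast to HAI3. ABI3 was lower in an exon as well (-0.93 ± 0.27), though not without L57 replicate 2 (adjusted p = 0.124, edgeR) or L26 replicate 2 (0.0572).

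Gibberellin genes showed 2 lower and 0 higher promoters of 13 measured (median -0.40). RGL3, a DELLA gene, had 36.1 and 29.3 CPM at L57, against 79.0 and 66.1 CPM at L26 (-1.15 ± 0.20), a call kept in each alternative. The call on the synthesis gene GA20OX3 (-1.27 ± 0.45) rested on under 15 CPM and was lost in 9 alternatives. A region 2647 bp upstream of the synthesis gene GA3OX2 (chr1:30204184-30205237) had 38.0 and 33.6 CPM, against 72.7 and 90.3 CPM (-1.20 ± 0.20). GA2OX8, whose enzyme removes gibberellin, was higher in an intron, with 42.6 and 39.2 CPM, against 16.1 and 19.7 CPM (1.17 ± 0.26).

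In the other hormone lists few promoters were called. Of 12 brassinosteroid and growth bHLH promoters 1 was higher (BIN2, a kinase that restrains brassinosteroid signaling, 0.60 ± 0.19), of 11 cytokinin promoters 1 was higher (ARR9, 0.79 ± 0.24) and 1 lower (CRF2, -1.16 ± 0.40), and of 8 jasmonate promoters 1 was higher (JAZ9, 0.56 ± 0.19) and 1 lower (JAZ7, -1.23 ± 0.41). Each of these calls was lost in at least 1 alternative. Regions away from the promoter kept theirs at CRF1, a cytokinin response factor gene, with 34.4 and 54.1 CPM at L57, against 91.4 and 82.0 CPM at L26 (-0.93 ± 0.17), at CRF2, with 48.5 and 59.2 CPM, against 109 and 90.2 CPM (-0.86 ± 0.17), and at the repressor gene JAZ6, with 34.1 and 30.2 CPM, against 14 and 10.3 CPM (1.42 ± 0.29). AIF1, a bHLH gene that opposes brassinosteroid growth, had 21.0 and 19.5 CPM at its promoter, against 33.4 and 31.6 CPM (-0.68 ± 0.26), which did not pass (edgeR adjusted p = 0.0632).

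Genes of the shoot meristem and leaf patterning had the lowest promoter median but 1, after the floral organ genes with 2 measured members. Of 38 genes, 14 had a promoter ACR, of which 0 were higher and 8 lower, with a median of -0.84. Of 35 intergenic ACRs up to 3000 bp upstream of these genes, 0 were higher and 16 lower, with a median of -0.68. GRF5 (AT3G13960, chr3:4606716-4608451), which promotes leaf cell proliferation, had 96.4 and 79.0 CPM at L57, against 233 and 183 CPM at L26 (-1.25 ± 0.13, edgeR adjusted p = 1.29e-14), after 80.2 CPM on average in dry seeds and 286 CPM at L6. GIF1, the coactivator that partners GRF factors, had 60.8 and 64.6 CPM at L57, against 123 and 114 CPM at L26 (-0.91 ± 0.16), after 58.2 CPM in dry seeds and 156 CPM at L6. At both genes the level at L57 had come back near that of the dry seed, after a maximum at L6.

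AIL5 closed at its promoter and at all 4 intergenic ACRs upstream, by -1.08 ± 0.33 to -2.08 ± 0.22, of which those at 469 and 905 bp were not called without L57 replicate 2 (adjusted p of 0.0509 and 0.118, edgeR). KNAT1, a homeobox gene that keeps the meristem undetermined, had 5.13 and 7.91 CPM at L57 in a region 2070 bp upstream, against 19.4 and 22.6 CPM at L26 (-1.67 ± 0.36). AIL6, CUC2, SPT, PHB and KAN1 were the other lower promoters, from -0.79 ± 0.22 (KAN1) to -1.41 ± 0.38 (PHB), and each was lost without at least 1 library, with adjusted p (edgeR) of up to 0.156 for AIL6, 0.0755 for CUC2, 0.186 for SPT, 0.113 for PHB and 0.160 for KAN1. Upstream regions of WUS, CLV3, REV, KAN2, FIL, TCP2, TCP14, TCP15, GRF2 and LSH3 were lower too, and 3 of the 16 upstream calls held in each alternative. STM, the meristem gene, had only an intronic ACR, at 8.61 and 10.0 CPM, against 5.83 and 9.73 CPM, with overlap. In gene bodies of the list 4 of 34 ACRs were higher and 3 lower, among them GRF3 (1.06 ± 0.19), and 0 of these 7 calls held in each alternative. In the labels the material is the whole embryo or seedling, so a smaller share of meristem and primordium nuclei at L57 cannot be told apart from closing within those cells.

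Oil mobilization promoters that changed were all lower. Of 19 genes for breaking down stored oil, 13 had a promoter ACR, of which 0 were higher and 5 lower (median -0.37). KAT2, the thiolase of fatty acid breakdown, had 81.1 and 81.8 CPM at L57, against 137 and 120 CPM at L26 (-0.65 ± 0.15), a call kept in each alternative. ICL, the isocitrate lyase of the glyoxylate cycle, had no called promoter ACR, but a coding exon (chr3:7652252-7653098) had 28.0 and 21.2 CPM at L57, against 64.7 and 59.8 CPM at L26 (-1.35 ± 0.22), and a region 1811 bp upstream (chr3:7657174-7658187) had 38.1 and 44.2 CPM, against 98.2 and 95.2 CPM (-1.22 ± 0.18). MFP2, an enzyme of fatty acid breakdown, was lower in an intron at 33.7 and 33.9 CPM, against 75.9 and 64.3 CPM (-1.04 ± 0.21). Its promoter and those of LACS7, PMDH1 and MLS, malate synthase, were lower by calls that each failed without at least 1 library, with adjusted p (edgeR) of up to 0.199 for MFP2, 0.146 for LACS7, 0.217 for PMDH1 and 0.0961 for MLS. Upstream regions of PCK1, PXA1 and LACS6 were lower as well, and that of ACX4 was higher (0.62 ± 0.18), and each of these calls failed without at least 1 library (adjusted p of up to 0.288, edgeR).

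The seed programme itself was mostly not called. Of 32 genes, 19 had a promoter ACR, of which 1 was higher and 2 lower (median 0.10, which was below 0 with TMM or DESeq2 size factors). SOM (chr1:953923-954739), which represses light-dependent germination, had 36.4 and 37.0 CPM at L57, against 90.7 and 78.2 CPM at L26 (-1.20 ± 0.18). Dry seeds averaged 227 CPM and L6 seeds 131 CPM, so the stage means went down at each step. LEC1, the embryo regulator, changed by -0.92 ± 0.34 (edgeR adjusted p = 0.0497), a call lost in 11 alternatives. TIP3;1, a seed vacuole aquaporin gene, had 93.2 and 72.6 CPM, against 49.5 and 53.3 CPM (0.67 ± 0.17), lost without L57 replicate 1 (0.138). EM6, a late embryogenesis gene, had 34.6 and 39.0 CPM, against 26.9 and 26.6 CPM (0.47 ± 0.23), which did not pass, below the 132 CPM of dry seeds.

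Few promoters were called in the cell wall, epidermis and proliferation lists. Of 13 cell wall promoters 1 was higher (EXPA6, 0.40 ± 0.14) and 2 lower, XTH19, a wall-loosening enzyme gene (-0.84 ± 0.19), and EXPA8 (-0.38 ± 0.13). Of these, XTH19 alone kept its call in each alternative. Upstream of this list 4 of 22 ACRs were higher and 5 lower, with CESA4, a secondary wall cellulose synthase gene, at 47.3 and 71.4 CPM at L57 in a region 2687 bp upstream, against 16.1 and 19.3 CPM at L26 (1.75 ± 0.24). Of 20 promoters of DNA replication and the cell cycle, 0 were higher and 3 lower (CYCB1;1, MCM7 and RNR1, median -0.20 over the list). Among epidermal and stomatal genes TMM, a receptor that spaces stomata, was higher (0.51 ± 0.13) and TRY and CER1 were lower, of 12 measured. The median of this list was -0.48, and -0.29 with offsets corrected for GC. Both L57 libraries lay below both L26 libraries in 10 of the 12 and above them in 1. The shares over all promoter ACRs were 35.3% below and 17.8% above. All these promoter calls other than XTH19 failed without at least 1 library (adjusted p of up to 0.39, edgeR). Of 6 vascular promoters 2 were lower, NAC045 (-1.28 ± 0.35) and NAC086 (-0.99 ± 0.30), which act in phloem cells. NAC045 was not called without L57 replicate 2 (adjusted p = 0.140, edgeR) or with thinned libraries, and NAC086 was not called without L57 replicate 1 (0.0939), L57 replicate 2 (0.0938) or L26 replicate 2 (0.138) or by the DESeq2 Wald test. Of 12 promoters of nitrate and sugar genes 1 was higher, DIN6, an asparagine synthetase gene, with 76.2 and 66.7 CPM at L57, against 41.0 and 38.1 CPM at L26 (0.85 ± 0.19).

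Of the loci taken whole, SPCH, the first factor of the stomatal lineage, had 2 ACRs and neither was called. GL2, which acts in trichomes and the root epidermis, had 4 and none called, with 20.8 and 33.3 CPM at the promoter, against 44.4 and 38.3 CPM (-0.58 ± 0.24). PYK10, a glucosidase gene of ER bodies, had 113 and 88.5 CPM, against 124 and 119 CPM (-0.28 ± 0.15). LHCB5 had 127 and 107 CPM at its promoter, against 87.3 and 82.4 CPM (0.46 ± 0.15), with adjusted p = 0.279 (edgeR) without L57 replicate 1.

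Markers of other tissues gave the following levels. Of 12 seed coat markers 4 had a promoter ACR, summing to 106 and 129 CPM at L57, against 151 and 156 CPM at L26, with 1 lower (TTG2, -0.57 ± 0.19) and 0 higher. TTG2 lost its call in 7 alternatives, among them without any 1 of the 4 libraries (adjusted p of up to 0.282, edgeR). In gene bodies of this list 1 ACR was higher (AHA10, 0.82 ± 0.29) and 1 lower of 8, and AHA10 was not called without L57 replicate 1 (0.565), L26 replicate 1 (0.198) or L26 replicate 2 (0.0802). Of 8 endosperm markers 0 had a promoter ACR. Of 24 root genes 4 were measured and 0 called, with sums of 194 and 196 CPM at L57, against 213 and 229 CPM at L26, and of 10 floral organ genes 2 were measured, with AP1 at 15.8 and 14.9 CPM, against 38.5 and 39.1 CPM (-1.34 ± 0.28). Away from promoters the floral list had higher ACRs, in exons of SEP1 (1.06 ± 0.39) and LFY (0.70 ± 0.21) and 2247 bp upstream of FUL (1.08 ± 0.29). AP1 kept its call in each alternative, while these 3 were lost without at least 1 library (adjusted p of up to 0.611 for SEP1, 0.113 for LFY and 0.120 for FUL, edgeR). All 11 reference genes were measured, with sums of 591 and 632 CPM at L57, against 686 and 606 CPM at L26, 0 higher and 1 lower (GAPC2, -0.66 ± 0.20), and a median of -0.21. GAPC2 was not called with offsets corrected for GC or without any 1 of the 4 libraries (adjusted p of up to 0.154, edgeR). The part of tissue makeup in the results was not tested.

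**Figure D5:**
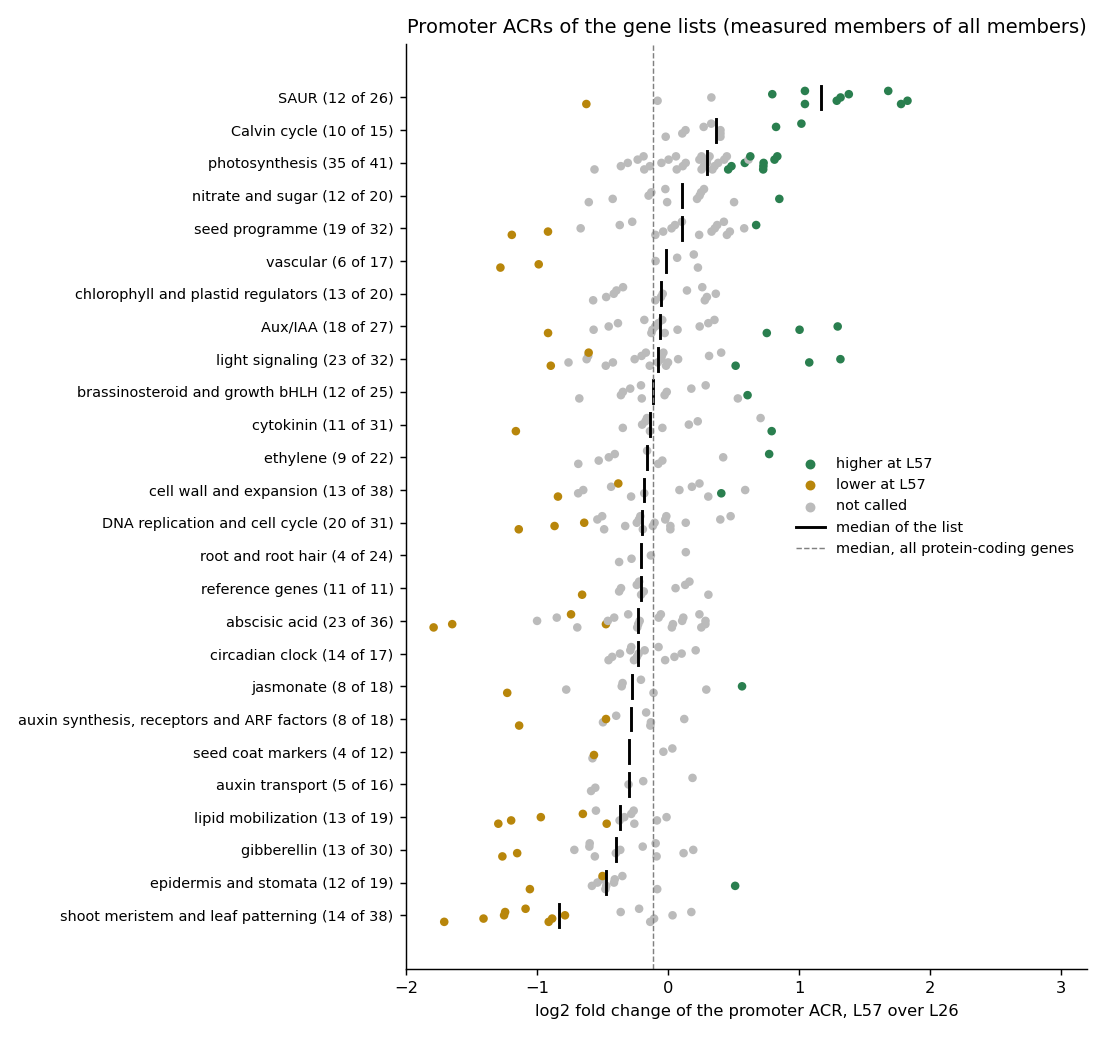
Log2 fold change of L57 over L26 at the promoter ACR of each measured member, by gene list, ordered by the list median (black bar). Points are called higher (green), called lower (ochre) or not called (grey), labels give measured members of all members, and the dashed line is the median of -0.12 over all protein-coding genes. SAUR genes stand highest (median 1.17), and shoot meristem and leaf patterning genes lowest (-0.84) of the 26 lists drawn, those with at least 4 measured members.

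The ACRs that changed between L26 and L57 were set against the first interval, L6 against DS, which shares no library with this comparison. Of the 1871 ACRs lower at L57, 878 had been called higher at L6 than in DS (46.9%, beside 17.62% of all ACRs), and 101 had been called lower. These 878 make up 16.5% of the 5324 ACRs that opened early. Of the 2276 ACRs higher at L57, 572 had been called lower at L6 than in DS (25.1%, beside 14.3% of all ACRs), and 104 had been called higher. ABI4, GRF5 and GIF1 show the first pattern in their promoters. ABI4 averaged 70.9 CPM at L6, against 23.9 CPM in dry seeds, and BBX22, of the second pattern, averaged 66.6 CPM at L6, against 124 CPM in dry seeds. The overlaps were not split by position class or GC content. Whole classes also moved in opposite directions. The gene-body share of reads went from 33.4% and 33.0% in dry seeds to 29.5% and 29.8% at L6. It went from 30.9% and 31.7% at L26 to 36.1% and 35.2% at L57. The part of class makeup in the overlaps was not tested.

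Motifs were counted within 250 bp of the summit. The G-box, CACGTG, the site of bZIP and bHLH factors such as HY5, ABI5 and the PIFs, was present in 9.14% of higher and 22.0% of lower ACRs, beside 14.2% of all. Within promoters the shares were 12.7% of higher and 21.6% of lower ACRs (17.8% of all promoter ACRs), within gene bodies 7.35% and 19.4% (10.6%), and in intergenic regions 12.5% and 23.7% (17.9%). The I-box, GATAAG, an element of light-regulated promoters, was present in 35.1% of higher and 25% of lower promoter ACRs (25.7% of all), in 34.6% and 24.4% of intergenic ones (25.2%), and in 27.1% and 23.9% of gene-body ones (25.03%). TATAAA was present in 39.7% of higher and 63.6% of lower ACRs and AATNATT, the homeodomain-leucine zipper element, in 28.3% and 44.5%, which are letters rich in A and T like the lower ACRs themselves. The auxin response element TGTCTC was at 29.8% and 27.0%, close to the 28.3% of all ACRs. Both strands were searched, the windows were of 1 length, and the shares are a description with no test.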

How the data were processed

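Per the study's methods and the submitters' processing notes, the authors trimmed reads with fastp (0.23.4), mapped them to TAIR10 with Bowtie2 (2.4.4), dropped non-nuclear, blacklisted and low-quality alignments with SAMtools (1.14), removed duplicates with Genrich (0.6.1), converted them to BED with bedtools (2.30.0), called peaks with MACS3 (3.0.0b3) on reads shifted and extended around the insertion points, and merged the peaks found in both replicates of a stage into 1 set. The deposited counts are whole-number reads per ACR, and the deposited CPM values are those counts scaled by the authors with csaw's loess offsets. Recomputed offsets differed from the authors' by at most 1.91e-12. The merged set means that an ACR need not have been called at either stage, and loess scaling assumes that most regions of a given abundance do not change.

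Counts were fitted with edgeR 4.0.16 in R 4.3.3 (estimateDisp, then glmQLFit with legacy = FALSE, then glmQLFTest; all 8 libraries, stage as the only term), with Benjamini-Hochberg adjustment over 30223 ACRs. Two-sided exact permutation tests were used for read shares. The offsets used the loess fit of limma 3.58.1 with a span of 0.3, and DESeq2 1.42.0 was used for alternatives. On counts simulated with the dispersion of the fit itself, 93% of 4-fold and 50% of 2-fold changes were recovered, and 4.67% of calls were false. Because of that shared dispersion, the simulation cannot show how the fit handles the real spread between replicates. Positions and names came from the RefSeq annotation of TAIR10.1, whose nuclear chromosomes have the lengths of TAIR10; 7 of 660 proposed list members did not match by ID and name and were left out. Named ACRs were the 8 largest rises and falls among promoter, the 6 among gene-body and the 4 among intergenic ACRs (adjusted p under 0.05, mean of at least 10 CPM, libraries not overlapping), up to 4 members per list by smallest p, and the loci taken whole; other called list members were added after their values were seen. An ACR upstream of a list gene lies within 3000 bp of its start. The members and lists were chosen with earlier results of these data known. Same-numbered replicates did not deviate together (correlation -0.04). No column of per-sample values was left unassigned. Results for some named members are not reported here.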

Additional observations from a re-analysis of the deposited data

How the results depend on the processing

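As reported, 2276 ACRs were higher and 1871 lower. The DESeq2 Wald test called 814 and 1177, in promoters 146 and 460 and in gene bodies 514 and 211. Among the 15111 ACRs above the median CPM, 1346 were higher and 1215 lower, with 735 higher in gene bodies. Leaving out 1 library gave 1039 to 1341 higher and 811 to 1230 lower ACRs, 233 to 301 higher and 269 to 468 lower promoter ACRs, and 576 to 778 higher and 141 to 210 lower gene-body ACRs. With a promoter reaching 1000 bp upstream there were 793 promoter ACRs higher at L57 and 1028 promoter ACRs lower at L57. Gene bodies had more higher than lower calls, and promoters more lower than higher calls, as reported and in each of the 15 alternatives and with the longer promoter. Intergenic ACRs had 376 higher and 792 lower calls, against 581 and 501 with GC-corrected offsets. The replicate block, for numbers that do not pair the libraries, gave 2191 and 1805 calls. The count filter removed no ACR. Of 265 called ACRs named or in the lists, 82 kept the call in each alternative that gave a value and 0 changed direction; 97 were lost in the DESeq2 Wald test, 95 to 126 without 1 library and 63 with GC-corrected offsets, and the cause was not tested. The median SE of a log2 fold change was 0.28, with a median of 39 and 46 reads per ACR in the L57 libraries, so small changes were often not detectable at this depth.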
